A study of Mus musculus with 6 samples.

Results

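The genes of the mitochondrial ribosomal proteins were taken as every row of the count table whose symbol starts with Mrpl or Mrps followed by a digit. This gave 76 of 30438 genes, 46 named for the large subunit (Mrpl) and 30 named for the small subunit (Mrps), and the rule reads the symbol alone. All 46 Mrpl genes and 29 of the 30 Mrps genes had enough counts to be tested. RNA was measured by poly(A)-selected sequencing in HEI-OC1, a conditionally immortalised mouse cell line of the organ of Corti, the hearing organ, used to study drug damage. The 3 Nrf2 KO libraries came from HEI-OC1 cells whose labels give the genotype as Nrf2 knockout, and the 3 control libraries from HEI-OC1 cells of wild-type genotype. Both lines were kept at 33 °C in 10% CO2 and 10% serum, with no drug recorded, and the submitters asked which genes could underlie the cisplatin resistance of the knockout cells. The labels call the cells of both groups cochlear stem cells. They do not say how the knockout was made or whether that line is 1 clone.

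The mitochondrial ribosome makes the few proteins encoded by the mitochondrial genome, which are core parts of the respiratory chain. Its RNAs come from the mitochondrial genome, while all of its proteins are encoded in the nucleus, made in the cytosol and imported. The large subunit joins amino acids and holds the exit tunnel, and the small subunit binds the mRNA and reads its codons. Some proteins have bacterial counterparts, and others are found in mitochondria alone. Nrf2, encoded by Nfe2l2, is a transcription factor of antioxidant and detoxification genes. It is a different protein from NRF1, a transcription factor known for driving nuclear genes of mitochondrial proteins.

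The libraries labelled Nrf2 KO held between 29130007 and 51285343 counts and the control libraries between 38636523 and 44098578. Nfe2l2 stood at 395.7, 235.6 and 204.5 CPM (counts scaled by TMM to a common library total) in the Nrf2 KO libraries, against 74.2, 126.5 and 96.7 CPM in the control libraries. With a log2 fold change of 1.49 (SE 0.33, adjusted p = 0.0456), the transcript went against the label, so each direction below rests on the labels alone. Counts over a whole gene cannot show a small edit within it. The Nfe2l2 call did not hold under upper-quartile scaling (adjusted p = 0.0526) or under library size (0.0593), nor when any 1 library other than Nrf2 KO replicate 1 was left out (0.0784 to 0.202). It held by DESeq2 (adjusted p = 0.000427), by limma-voom (0.036) and with the replicate number as a block (0.0449). The call also held without Nrf2 KO replicate 1 (0.0126) and without both replicate 1 libraries (0.00105). Nrf2 KO replicate 1 stood apart, with a Pearson's r of log2 CPM across genes of 0.931 and 0.939 with replicates 2 and 3 of its own label, which had 0.995 with each other. Of 9 hair cell markers in the table, 3 (Atoh1, Slc26a5 and Calb2) had 0 counts in every library and 3 had enough counts to test, and the supporting cell marker Sox2 was also at 0. The 9 hair cell markers summed to between 62.9 and 76.8 CPM in Nrf2 KO, against 33.2 to 45.4 CPM in control, and the 10 supporting cell markers to between 441 and 625 CPM, against 242 to 302 CPM. The 6 fibroblast markers summed to between 3820 and 5870 CPM in Nrf2 KO libraries, against 1460 to 1910 CPM in control, with none of the 6 at 0 in every library. By edgeR 4 of 5 tested fibroblast, 3 of 6 supporting cell and 1 of 3 hair cell markers were called higher, where 4.83% of all genes were. The 1 tested epithelium marker and the 1 tested endothelium marker were also higher, and of 2 tested leukocyte markers 1 was lower. The part of these markers in the results below was not tested.

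Transcripts of the mitochondrial ribosome took a smaller share of the counts in the libraries labelled Nrf2 KO, in both subunits. The 46 Mrpl genes together held 2062, 2127 and 2338 CPM (here of the unscaled library total) in Nrf2 KO replicates 1, 2 and 3, against 3021, 2631 and 2890 in control replicates 1, 2 and 3. The groups did not overlap, and the mean of 2176 ± 144 in Nrf2 KO was 23.6% below the 2847 ± 198 of control (SD, n = 3 each). The 30 Mrps genes held 1274, 1154 and 1276 CPM in Nrf2 KO, against 1778, 1411 and 1601 in control. These groups did not overlap either, and the mean of 1235 ± 69.9 in Nrf2 KO was 22.7% below the 1597 ± 184 of control. The number of large subunit counts for each small subunit count was 1.62, 1.84 and 1.83 in Nrf2 KO and 1.70, 1.86 and 1.80 in control, so that ratio overlapped between the groups. With TMM scaling the sums were 22.3% lower for Mrpl and 21.6% lower for Mrps. In bulk samples, fewer cells of a type and less RNA per cell cannot be told apart.

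**Figure D1:**
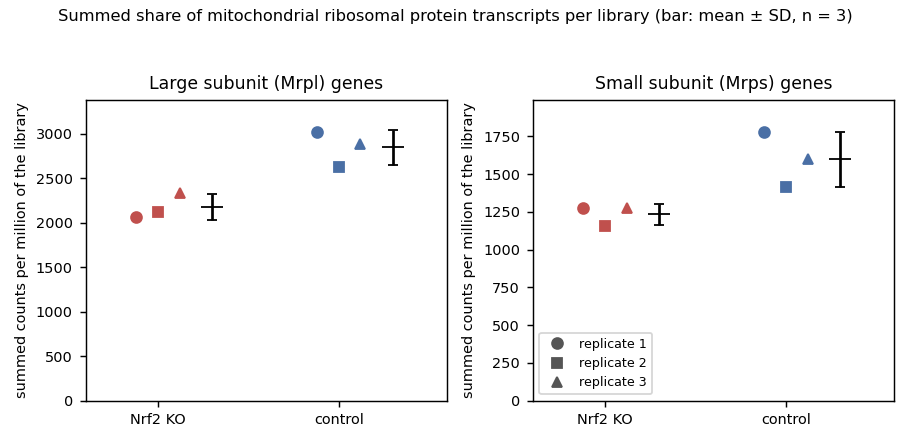
Summed CPM of the unscaled library total for the Mrpl genes (left) and the Mrps genes (right), 1 point per library with the mean ± SD of 3 beside it. The 3 Nrf2 KO libraries lie between 2062 and 2338 for Mrpl and between 1154 and 1276 for Mrps, below all 3 control libraries in each panel.

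Most single members lay below 0 on the log2 scale, and few passed the test. Among 46 tested Mrpl genes, 3 fell and 0 rose (quasi-likelihood test of edgeR, Benjamini-Hochberg adjustment over all genes). Over all 14618 genes tested, 3.45% were called lower and 4.83% higher. At an unadjusted p under 0.05, 15 Mrpl genes were lower and 0 higher, where 11.6% of all genes were lower and 13.4% higher. By DESeq2 10 Mrpl genes were lower and 0 higher, where it called 6.43% of all genes lower and 8.25% higher. By limma-voom 4 were lower and 0 higher, where 4.12% and 5.14% of all genes were lower and higher. The Mrpl fold changes had a median of -0.48 on the log2 scale, against 0.04 over all genes, and 39 of the 46 were negative, against 46.4% of all genes. That median was -0.32 without Nrf2 KO replicate 1 and -0.27 without both replicate 1 libraries. Among 29 tested Mrps genes, 1 fell and 0 rose, and 10 were lower and 0 higher before adjustment (p under 0.05). DESeq2 had 6 of them lower and limma-voom 2, and neither had any higher. Their median was -0.36, and 23 of the 29 were negative. All 3 Nrf2 KO libraries lay below all 3 control libraries for 17 Mrpl and 10 Mrps genes, and above them for 1 Mrpl gene and 0 Mrps genes, where 17.1% of all genes lay below and 17.1% above.

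The counts of calls depended on the libraries used. With the replicate number as a block, 11 Mrpl and 5 Mrps genes were lower and 0 higher, where 7.92% of all genes were called lower and 10.4% higher. With library size in place of TMM, 6 Mrpl and 3 Mrps genes were lower and 0 higher, where 3.66% and 4.42% of all genes were lower and higher. Without Nrf2 KO replicate 1, 12 Mrpl genes were lower and 0 higher, and 10 Mrps genes lower and 2 higher, where 14.5% of all genes were called lower and 15.6% higher. Without both replicate 1 libraries, 22 Mrpl and 14 Mrps genes were lower and 2 of each higher, where 22.1% and 24.0% of all genes were called lower and higher. The 4 genes called with all libraries were also called in each of these fits. Without any 1 of the other 5 libraries, 0 Mrpl genes passed, and the single Mrps call, made without control replicate 3, was Mrps28 as higher. Over all genes these fits called between 57 and 110 lower and between 139 and 271 higher, with at least 14865 genes tested in each.

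**Figure D2:**
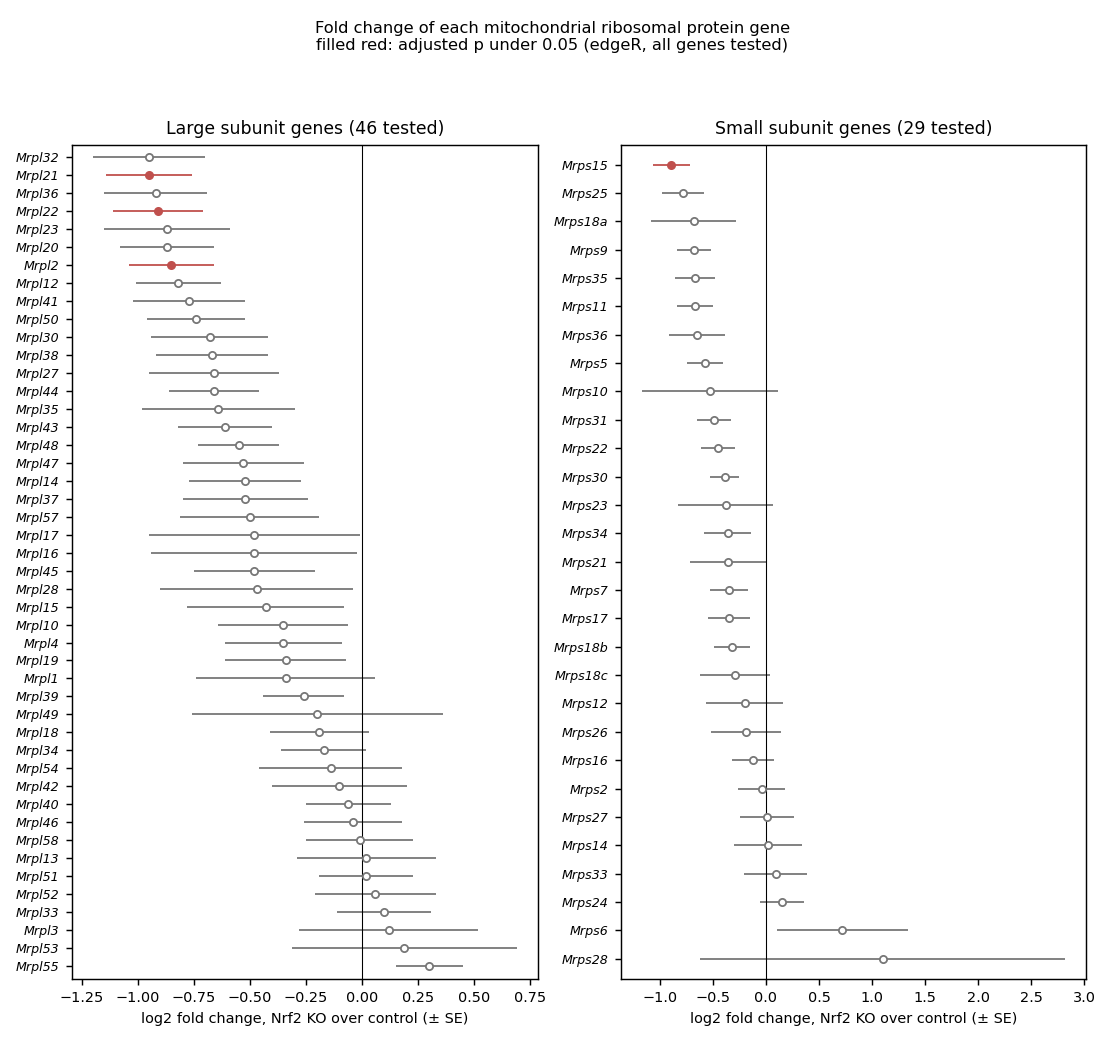
Log2 fold change of Nrf2 KO over control with its standard error for the 46 Mrpl genes (left) and the 29 tested Mrps genes (right), ordered by fold change, with genes at an adjusted p under 0.05 filled in red. The 4 filled genes are Mrpl21, Mrpl22, Mrpl2 and Mrps15, and 62 of the 75 points lie below 0.

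The 3 large subunit genes that fell have bacterial counterparts. Mrpl21 stood at 23.8, 28.7 and 34.1 CPM in Nrf2 KO libraries, against 63.0, 48.1 and 56.2 CPM in control. Its log2 fold change was -0.95 (SE 0.19, adjusted p = 0.0342). Mrpl22, whose bacterial counterpart lines the peptide exit tunnel, had 25.7, 31.95 and 34.6 CPM in Nrf2 KO, against 70.3, 48.15 and 55.35 CPM in control. That is a log2 fold change of -0.91 (SE 0.20, adjusted p = 0.0465). Mrpl2 belongs to the family of the bacterial protein beside the peptide-bond-forming centre, and it had 15.2, 13.5 and 17.55 CPM in Nrf2 KO, against 32.4, 23.4 and 27.4 CPM in control. The log2 fold change of Mrpl2 was -0.85 (SE 0.19, adjusted p = 0.0471), the call nearest to the threshold. None of these 3 genes overlapped between the groups, and in each the highest control value was that of replicate 1.

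Mrps15, a protein of the small subunit's platform with a bacterial counterpart, was the 1 small subunit gene that fell. It had 58.6, 57.3 and 62.5 CPM in Nrf2 KO, against 132.9, 93.5 and 103.9 CPM in control, a mean of 59.5 ± 2.72 against 110.1 ± 20.4 CPM (SD, n = 3 each). Mrps15 had a log2 fold change of -0.89 (SE 0.17, adjusted p = 0.0293), and the Nrf2 KO libraries were close together while the control libraries spread more widely. All 4 calls were lost without any 1 of the 5 libraries other than Nrf2 KO replicate 1, with adjusted p from 0.0718 to 0.203. Mrpl22 (0.0556) and Mrpl2 (0.0592) also lost the call with no filter on low counts.

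Several members of like fold change missed the threshold. Mrpl32, which a mitochondrial protease matures before it is assembled, had 23.5, 16.3 and 19.0 CPM in Nrf2 KO, against 47.65, 27.6 and 37.95 CPM in control. The log2 fold change of -0.95 (SE 0.25) had an adjusted p of 0.0760. The groups did not overlap, but the control libraries differed widely among themselves. Mrpl36, the counterpart of a small zinc-binding bacterial protein, had 8.52, 11.5 and 14.0 CPM in Nrf2 KO, against 24.9, 18.8 and 20.8 CPM in control (log2 fold change -0.92, SE 0.23, adjusted p = 0.0652). Just outside the threshold were Mrpl12, counterpart of the stalk protein that recruits translation factors, and Mrps9 of the small subunit's head. Mrpl12 had 61.5, 75.5 and 88.4 CPM in Nrf2 KO, against 149.6, 113.6 and 135.0 CPM in control (-0.82, SE 0.19, adjusted p = 0.0542). Mrps9 had 29.3, 35.1 and 39.7 CPM in Nrf2 KO, against 56.5, 52.3 and 57.6 CPM in control (-0.68, SE 0.16, adjusted p = 0.0549). With the replicate block, Mrpl32 (adjusted p = 0.0141), Mrpl12 (0.0401) and Mrps9 (0.0331) passed and Mrpl36 (0.0510) did not.

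Next among the lowest small subunit genes were Mrps25 and Mrps18a. Mrps25, found in mitochondria alone, had 18.2, 21.8 and 24.4 CPM in Nrf2 KO, against 43.7, 31.3 and 35.3 CPM in control (log2 fold change -0.78, SE 0.20, adjusted p = 0.0633). Mrps18a, a protein of the large subunit in spite of its name, had 9.77, 28.4 and 28 CPM in Nrf2 KO, against 31.1, 37.7 and 37.1 CPM in control (-0.68, SE 0.40, adjusted p = 0.369). Replicate 1 was the lowest library of each group for Mrps18a, and the 2 groups did not overlap. Its log2 fold change was -0.33 without Nrf2 KO replicate 1 (adjusted p = 0.0905) and -0.40 without both replicate 1 libraries (adjusted p = 0.00702). Mrps25 (adjusted p = 0.0271), Mrpl32 (0.0179) and Mrpl36 (0.0203) passed as lower without Nrf2 KO replicate 1.

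**Figure D3:**
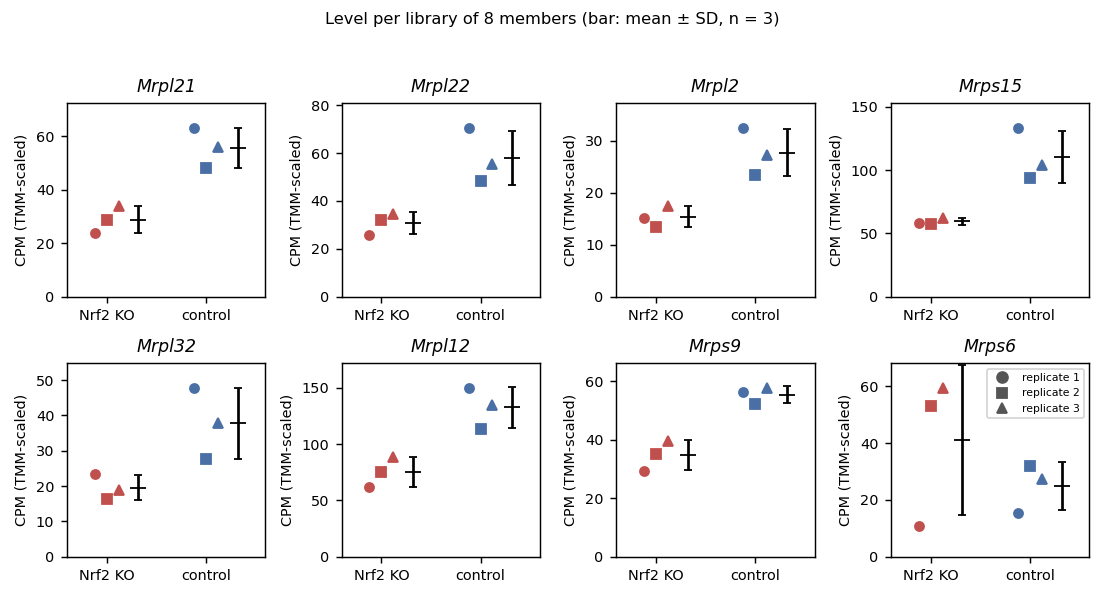
TMM-scaled CPM of 8 members in each library, with replicate numbers as symbols and the mean ± SD of 3 beside the points. In 7 of the genes the Nrf2 KO libraries lie below all control libraries, while Mrps6 is highest in Nrf2 KO replicates 2 and 3 (53.0 and 59.2 CPM) and lowest in Nrf2 KO replicate 1 (10.98 CPM).

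Promoter letters were read as a feature that the choice of genes did not use, and 34 of 72 member promoters held either of the motifs searched. RefSeq promoters of the mouse build GRCm38.p6, from 250 bases before to 50 bases after the start, were found for 66 of the 76 members, some with more than 1 start. The ETS motif CCGGAAG, bound by factors such as GABPA, was present on either strand in 15 of 45 Mrpl promoters and 11 of 27 Mrps promoters, or 36.1% together, against 8.86% of all 32851 promoters. The NRF1 core GCGCANGCGC, or GCGCNTGCGC on the other strand, was found in 9 Mrpl and 3 Mrps promoters, or 16.7% together, against 4.6% of all promoters. All promoters include those of noncoding and predicted genes, and none of the windows printed here holds both motifs. Members with the ETS motif had a median log2 fold change of -0.24 (26 genes) and those without it -0.52 (40 genes). For the NRF1 core the medians were -0.51 with it (12 genes) and -0.36 without it (54 genes). These medians were not tested against each other, and a match of letters is a description of the window alone. The windows of Mrpl22 (chr11:58171414-58171713, plus strand), Mrpl21 (chr19:3282792-3283091, plus strand) and Mrps15 (chr4:126046678-126046977, plus strand) are shown as called genes with and without a match, and that of Mrpl32 (chr13:14612988-14613287, minus strand) as the lowest member with the NRF1 core. Capitals mark the ETS motif 53 bases before the start in Mrpl22 and just after the start in Mrpl21, where it reads CTTCCGG on the other strand, and the NRF1 core 87 bases before the start in Mrpl32.
Mrpl22: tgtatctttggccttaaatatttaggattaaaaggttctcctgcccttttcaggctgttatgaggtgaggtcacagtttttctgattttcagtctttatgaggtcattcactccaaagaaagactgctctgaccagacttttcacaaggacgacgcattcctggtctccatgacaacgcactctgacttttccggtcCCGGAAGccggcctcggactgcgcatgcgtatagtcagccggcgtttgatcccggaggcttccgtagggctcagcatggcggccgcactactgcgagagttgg
Mrpl21: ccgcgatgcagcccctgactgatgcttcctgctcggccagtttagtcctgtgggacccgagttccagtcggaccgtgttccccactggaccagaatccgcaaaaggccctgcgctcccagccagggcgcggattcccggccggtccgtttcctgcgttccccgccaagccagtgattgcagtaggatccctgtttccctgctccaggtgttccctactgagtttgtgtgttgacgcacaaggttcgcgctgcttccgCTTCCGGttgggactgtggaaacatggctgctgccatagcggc
Mrpl32: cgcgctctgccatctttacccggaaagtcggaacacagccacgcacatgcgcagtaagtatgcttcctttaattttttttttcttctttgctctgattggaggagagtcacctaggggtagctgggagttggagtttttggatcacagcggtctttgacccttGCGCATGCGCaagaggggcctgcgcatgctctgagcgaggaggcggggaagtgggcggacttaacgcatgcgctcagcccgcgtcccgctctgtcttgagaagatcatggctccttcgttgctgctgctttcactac
Mrps15: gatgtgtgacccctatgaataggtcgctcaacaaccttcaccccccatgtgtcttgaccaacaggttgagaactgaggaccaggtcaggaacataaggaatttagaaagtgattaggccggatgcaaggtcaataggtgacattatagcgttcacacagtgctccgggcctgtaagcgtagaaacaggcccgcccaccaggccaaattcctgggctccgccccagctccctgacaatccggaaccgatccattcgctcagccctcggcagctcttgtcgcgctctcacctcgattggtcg
Neither motif was found in the windows of Mrps15 and Mrpl2.

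At the other end of the order, the fitted values above 0 did not pass the test with all libraries. Mrpl55, a counterpart of bacterial L31, had 35.4, 30.0 and 33.9 CPM in Nrf2 KO, against 28.7, 24.8 and 27.3 CPM in control (log2 fold change 0.30, SE 0.15, adjusted p = 0.275). It was the 1 member whose Nrf2 KO libraries all lay above all control libraries. Mrpl53 (0.19, SE 0.50), Mrpl3 (0.12, SE 0.40) and Mrpl33 (0.10, SE 0.21) followed, and each of these overlapped between the groups. Without Nrf2 KO replicate 1 the log2 fold change was -0.47 for Mrpl53, 0.45 for Mrpl3 and 0.01 for Mrpl33, and none of them passed. Without both replicate 1 libraries Mrpl53 had -0.09, while Mrpl3 (0.30, adjusted p = 0.0137) and Mrpl55 (0.30, adjusted p = 0.0462) passed as higher. Mrps6, a counterpart of bacterial S6, had 10.98, 53.0 and 59.2 CPM in Nrf2 KO, against 15.4, 31.96 and 27.4 CPM in control (0.72, SE 0.62, adjusted p = 0.545). Without Nrf2 KO replicate 1 its log2 fold change was 1.17 and passed (adjusted p = 0.0256), and without both replicate 1 libraries it was 0.92 (adjusted p = 0.000432). Mrps24, a counterpart of bacterial S3, had a log2 fold change of 0.15 (SE 0.21), or 0.31 without Nrf2 KO replicate 1 (adjusted p = 0.132), and Mrps33 one of 0.09 (SE 0.30), which was 0.36 and passed without Nrf2 KO replicate 1 (adjusted p = 0.0457).

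Mrps28, the counterpart of bacterial S1, gave no usable difference. It had 123, 233 and 207 counts in the libraries labelled Nrf2 KO and 0, 0 and 249 counts in control replicates 1, 2 and 3. Control replicate 3 was therefore at the level of the Nrf2 KO libraries, and the fitted log2 fold change of 1.1 had a standard error of 1.72. Mrps21l, which shares its name with Mrps21, had between 3 and 8 counts in every library and was left out by the filter on low counts. Mrps21 had between 1806 and 3636 counts, so few reads were assigned to Mrps21l by comparison. How reads that match both were counted is not stated, which leaves the level of Mrps21 uncertain.

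Per length, as FPKM in the authors' deposited table with 1 value per group, Mrpl18 had the highest level of the large subunit genes, at 299.7 for Nrf2 KO and 347.7 for control. Mrpl33 (201.2 and 188.6 FPKM) and Mrpl13 (117.6 and 118.1 FPKM) came next in that table. Among the small subunit genes the authors' deposited table was led by Mrps21 (94.65 and 122.1 FPKM), Mrps7 (94.8 and 121.5 FPKM) and Mrps26 (55.6 and 63.3 FPKM). None of these 6 genes passed the test on counts, with log2 fold changes of -0.19 (SE 0.22) for Mrpl18, 0.10 (SE 0.21) for Mrpl33, 0.02 (SE 0.31) for Mrpl13, -0.36 (SE 0.36) for Mrps21, -0.35 (SE 0.18) for Mrps7 and -0.19 (SE 0.33) for Mrps26. Without Nrf2 KO replicate 1, Mrps21 had a log2 fold change of -0.79 and passed (adjusted p = 0.0454), as it did without both replicate 1 libraries (-0.56, adjusted p = 0.0131). Without Nrf2 KO replicate 1 the log2 fold change was -0.59 for Mrps26, -0.30 for Mrpl13 and -0.03 for Mrpl18, none of which passed, and Mrps26 passed without both replicate 1 libraries (-0.37, adjusted p = 0.0473). The 4 called genes were lower in that order, at 24.8 and 48.6 FPKM for Mrpl21, 34.1 and 65.1 for Mrpl22, 12.7 and 23.0 for Mrpl2 and 22.0 and 41.1 for Mrps15, in the authors' deposited table for Nrf2 KO and control.

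Libraries with the same replicate number deviated together from their groups, so the members were also compared within each number. The pairing of numbers 2 and 3 is uncertain. Deviations of Nrf2 KO replicate 3 correlated at 0.539 with control replicate 2 and at 0.310 with control replicate 3. For number 1 the Nrf2 KO library was below the control library in 42 of 46 Mrpl genes, with a median log2 ratio of -0.90. For number 2 it was below in 37 genes (median -0.29), and for number 3 in 39 genes (median -0.29). The Mrps genes gave 26, 21 and 22 of 29 below, with medians of -0.69, -0.29 and -0.33 for numbers 1, 2 and 3. Of the 75 tested members, 53 were lower in all 3 numbers and 1 (Mrpl55) higher in all 3, where 30.5% and 30.3% of all genes were lower and higher in all 3. The ratio was thus furthest from 0 for number 1 in both subunits, and its median was below 0 for every number.

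**Figure D4:**
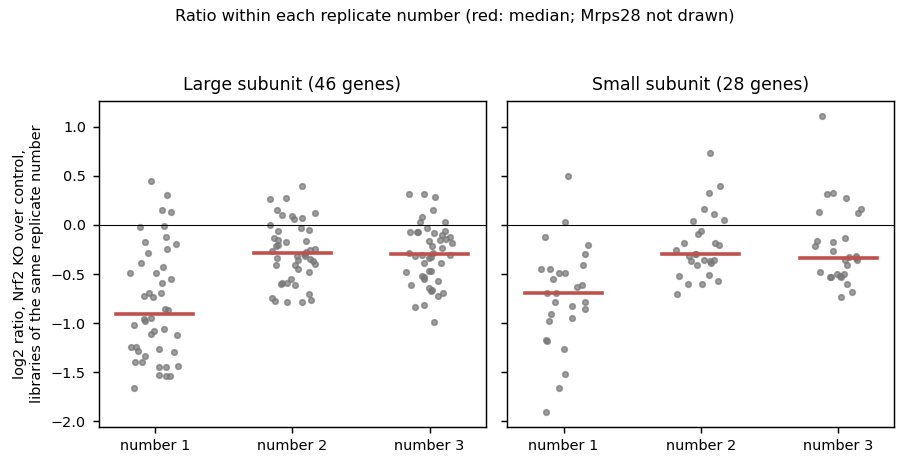
Log2 ratio of Nrf2 KO over control between libraries of the same replicate number for the Mrpl genes (left) and the Mrps genes (right, without Mrps28), 1 point per gene, with the median as a red line. The medians lie below 0 for all 3 numbers and furthest from 0 for number 1 (-0.90 for Mrpl and -0.69 for Mrps).

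The spread within the group labelled Nrf2 KO came mostly from replicate 1. Replicates 2 and 3 differed by a median of 0.18 on the log2 scale over the Mrpl genes and 0.16 over the Mrps genes, and by no more than 0.40 in any tested member. Replicate 1 lay more than 1 log2 unit below the mean of the other two in 9 Mrpl and 7 Mrps genes and more than 1 unit above it in 1 of each. Mrps10 was furthest below, with 1.69 CPM in Nrf2 KO replicate 1 and 10.2 and 9.38 CPM in replicates 2 and 3, against 6.61, 13.4 and 10.9 CPM in control. Mrpl49 had 6.29, 32.1 and 28.4 CPM in Nrf2 KO, against 20.0, 28.95 and 27.8 CPM in control. Mrpl53 went the other way, with 65.1, 21.5 and 26.2 CPM in Nrf2 KO, against 47.5, 22.0 and 29.1 CPM in control. Control replicate 1 deviated in a like order of genes, and less in the median size without sign (0.60 log2 units in Nrf2 KO replicate 1 and 0.36 in control replicate 1, over the Mrpl genes). The signs leaned opposite ways. Nrf2 KO replicate 1 was below its replicates 2 and 3 in 29 of 46 Mrpl and 19 of 29 Mrps genes. Control replicate 1 was above its own in 29 Mrpl and 19 Mrps genes. The sign was the same in 34 Mrpl and 18 Mrps genes. Over 74 members, without Mrps28, the deviations of the replicate 1 libraries had a Spearman's rho of 0.88 between the groups, a description across genes that share libraries and depth. Mrps28 left out, the most deviant genes of control replicate 1 were Mrps6 (-0.94 log2 units), Mrpl53 (0.91) and Mrps10 (-0.86).

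**Figure D5:**
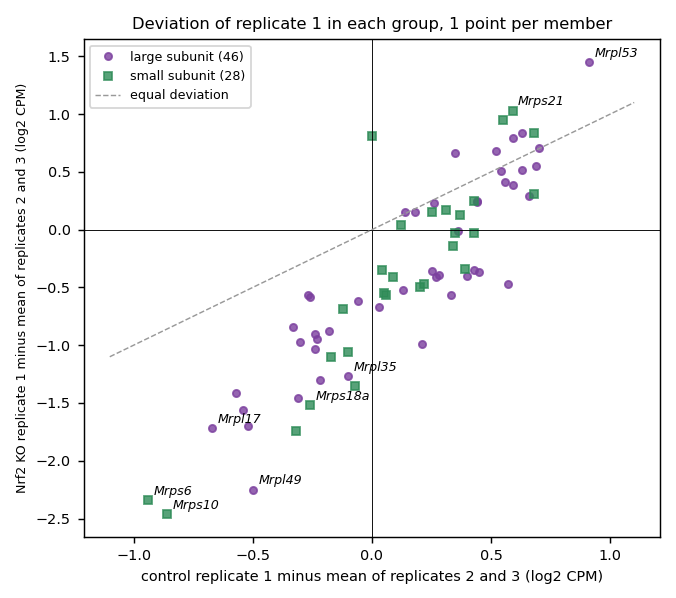
Deviation of replicate 1 from the mean of replicates 2 and 3, in log2 CPM, in the Nrf2 KO group (vertical) and the control group (horizontal), 1 point for each of 46 Mrpl and 28 Mrps genes, with a dashed line of equal deviation. The members lowest in control replicate 1 are among the lowest in Nrf2 KO replicate 1, down to -2.46 for Mrps10, and Mrpl53 is highest in both.

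Members were also read by the origin of the protein. Of 27 tested large subunit genes with a bacterial counterpart, 3 fell and 0 rose, with a median log2 fold change of -0.48 and 23 negative values. Of 19 large subunit genes found in mitochondria alone, 0 passed by edgeR (6 were lower and 0 higher at an unadjusted p under 0.05, DESeq2 called 2 lower, limma-voom 0), with a median of -0.26 and 16 negative values. Of 16 small subunit genes with a bacterial counterpart, 1 fell (median -0.32, 12 negative). Of 10 small subunit genes found in mitochondria alone, 0 passed by edgeR (4 lower and 0 higher at an unadjusted p under 0.05, 2 lower by DESeq2, 0 by limma-voom), with a median of -0.37 and 8 negative values. The difference between these classes was not tested. With the replicate block, 9 of the 27 and 2 of the 19 large subunit genes and 3 of the 16 and 2 of the 10 small subunit genes were lower. Over all genes 7.92% were lower with that block, 3.45% by edgeR, 6.43% by DESeq2 and 4.12% by limma-voom. At an unadjusted p under 0.05 the share lower was 11.6%. Mrps30, like Mrps18a a large subunit protein in spite of its name, had a log2 fold change of -0.39 (SE 0.14, adjusted p = 0.15). Mrps36, now known as a part of the oxoglutarate dehydrogenase complex, had one of -0.65 (SE 0.26, adjusted p = 0.185).

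Other genes of the same machinery were read from lists by role, where edgeR called 3.45% of all genes lower and 4.83% higher. Of 5 tested mitoribosomal proteins under other names, 1 fell and 0 rose, with a median of -0.14. It was Ptcd3, an RNA-binding protein at the mRNA entry, which had 79.8, 83.5 and 79.1 CPM in Nrf2 KO, against 115.7, 116.9 and 120.2 CPM in control. The groups were well apart, with a log2 fold change of -0.54 (SE 0.13, adjusted p = 0.0497) that did not pass under RLE scaling (0.0509), under library size (0.0527), with no filter on low counts (0.0926) and without any 1 library but Nrf2 KO replicate 1 (0.159 to 0.261). Of 15 mitochondrial translation factors, 2 fell and 0 rose, with a median of -0.03. Mtif3, an initiation factor, had 18.9, 26.4 and 24.1 CPM in Nrf2 KO, against 40.55, 43.2 and 41.95 CPM in control (-0.86, SE 0.17, adjusted p = 0.0308). Guf1, a GTPase that acts on elongating mitochondrial ribosomes, had a log2 fold change of -0.61 (SE 0.13, adjusted p = 0.0426).

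Of 25 genes of mitoribosome assembly and rRNA modification, 3 fell and 0 rose by edgeR, with a median of -0.11. At an unadjusted p under 0.05, 5 were lower and 3 higher, and 1 was called higher by DESeq2 and by limma-voom, where 5 and 3 were lower. That gene was Mpv17l2, a factor of mitoribosome assembly named after its values were seen, at 34.5, 29.85 and 33.25 CPM in Nrf2 KO, against 23.04, 19.7 and 20.9 CPM in control (log2 fold change 0.62, SE 0.15, adjusted p = 0.0545). Its adjusted p was 0.00364 by DESeq2 and 0.0489 by limma-voom, and all 3 Nrf2 KO libraries lay above all 3 control libraries. Mrm2, a methyltransferase of the large subunit rRNA, had 8.04, 6.62 and 7.996 CPM in Nrf2 KO, against 21.4, 17.2 and 17.2 CPM in control. The log2 fold change of -1.30 (SE 0.19, adjusted p = 0.0117) was beyond that of every tested Mrpl and Mrps gene that fell. Rbfa, a maturation factor of the small subunit, had 9.19, 12.04 and 10.96 CPM in Nrf2 KO, against 21.7, 18.02 and 21.35 CPM in control (-0.92, SE 0.18, adjusted p = 0.0293). Nsun4, a methyltransferase of the small subunit rRNA, had a log2 fold change of -1.12 (SE 0.24, adjusted p = 0.0428). These 3 genes, Mtif3 and Guf1 all lost the call without any 1 of the 5 libraries other than Nrf2 KO replicate 1, with adjusted p from 0.0556 to 0.230. Guf1 (0.0639) and Nsun4 (0.0593) also lost it with no filter on low counts, and Guf1 under library size (0.0629). With the replicate block 2 assembly genes were higher and 5 lower, and without Nrf2 KO replicate 1 there were 3 higher and 6 lower.

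Of 12 tested genes of mitochondrial transcription and biogenesis, 0 passed by edgeR (1 higher and 2 lower at an unadjusted p under 0.05, 1 lower by DESeq2 and by limma-voom), with a median of -0.02. Over all genes 13.4% were higher and 11.6% lower at an unadjusted p under 0.05, and DESeq2 called 6.43% lower and limma-voom 4.12%. The 1 higher gene was Nrf1, named after its values were seen. It had 52.96, 58.1 and 50.7 CPM in Nrf2 KO, against 43.1, 40.6 and 41.97 CPM in control (log2 fold change 0.36, SE 0.13, adjusted p = 0.153). Gabpa, an ETS factor of nuclear genes for mitochondrial proteins, had 88.9, 141 and 142 CPM in Nrf2 KO, against 94.4, 129.3 and 114.9 CPM in control (log2 fold change 0.13, SE 0.24, adjusted p = 0.792). Myc, a transcription factor of growth and ribosome genes, had 95.7, 48.4 and 55.9 CPM in Nrf2 KO, against 184.6, 131 and 158.5 CPM in control. The groups did not overlap, and its log2 fold change of -1.25 (SE 0.30) had an adjusted p of 0.0575, or 0.0114 with the replicate block.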

How the data were processed

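RNA of 6 HEI-OC1 libraries was compared, 3 labelled Nrf2 KO against 3 control. The deposited table holds raw counts per gene symbol, per the file headers. The second deposited table holds FPKM, which the authors give once for each group. The submitters' processing notes name fastp, FastQC, HISAT2, DESeq2 1.34.0 and the build hg18, without saying what each was used for. How reads were counted, on which strand and against which annotation, is not stated, so overlapping genes and antisense partners may share reads that cannot be told apart. The symbols follow rat nomenclature although the cells are mouse, and the effect of this on levels or on ratios between groups was not tested. No column belonged to another sample.

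The test was that of edgeR 4.0.16 (R 4.3.3): filterByExpr by group (minimum count 10, minimum total 15), TMM scaling, and a robust quasi-likelihood model with a term for group. It has no term for the replicate number, which only the replicate block fit includes. Two-sided p-values were adjusted by Benjamini-Hochberg over 14618 genes, with a threshold of 0.05, and unnamed adjusted p-values come from this test. Standard errors are the log2 fold change over the root of F. Alternatives used DESeq2 1.42.0, limma-voom (limma 3.58.1), other scalings and filters, and left-out libraries. The test was run on simulated counts first. Library pairs within a group had a chi-square per degree of freedom of at least 14.3, so none agreed within sampling noise. The deviations of same-numbered libraries from their group means correlated at 0.754, 0.696 and 0.310, all above the limit of 0.1. Same-numbered libraries were therefore also compared as pairs, outside the main test, although the labels state no pairing. For number 3 the counts do not single out that pair, as Nrf2 KO replicate 3 correlated at 0.539 with control replicate 2. Deviations from a mean of 3 libraries depend on each other, so the limit is a weak check. The labels do not say that replicates were separate cultures, so p-values reflect the spread of these 6 libraries, which may be technical. Ratios within a number had 0.1 CPM added.

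Named genes were all called members, the 4 highest and 4 lowest fold changes and the 3 highest FPKM of each subunit, those next to the threshold or removed by the filter, and up to 4 called genes (or the 2 of highest CPM) of the other lists. Mrpl49, Mrps10, Mrps30, Mrps36, Mpv17l2 and Nrf1 were chosen after their values were seen. The members, lists and the left-out replicate 1 libraries were chosen with earlier results of these data known. Symbols were matched with their case, which leaves out 3 rows written mrpl9, mrpl11 and mrpl24. Promoters came from RefSeq (GRCm38.p6).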

Additional observations from a re-analysis of the deposited data

How the results depend on the processing

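With all libraries 3 Mrpl and 1 Mrps genes were lower and 0 higher. Mrpl genes lower numbered 6 with upper-quartile scaling, 6 with library size alone, 1 with no filter on low counts, 10 with DESeq2, 11 with the replicate block and 22 without both replicate 1 libraries. Mrps genes lower numbered 2, 3, 6, 5 and 14 with upper-quartile scaling, library size alone, DESeq2, the replicate block and no replicate 1 libraries, and 2 each with a filter of 1 CPM and with limma-voom. Leaving out 1 library gave between 0 and 12 Mrpl and between 0 and 10 Mrps genes lower, and between 0 and 2 Mrps genes higher. Without both replicate 1 libraries 2 Mrpl and 2 Mrps genes were higher. Over all genes 706 were higher and 505 lower, against 1420 and 1107 with DESeq2, 1520 and 1158 with the replicate block and 3540 and 3253 without both replicate 1 libraries. With upper-quartile scaling 630 of 14618 tested genes were higher and 597 lower. No filter on low counts gave 595 higher and 412 lower of 20852, and the filter of 1 CPM gave 660 and 481 of 12653. Fits without 1 library gave between 139 and 2323 higher and between 57 and 2162 lower. The cause was not tested. The median log2 fold change stayed negative in every alternative run, between -0.59 and -0.27 for Mrpl and between -0.45 and -0.28 for Mrps. The Mrpl value nearest 0 is that without both replicate 1 libraries. These medians lay within 1 SD between libraries (0.212 and 0.152) of -0.48 and -0.36. That SD includes the spread of the replicate 1 libraries, so it cannot judge the effect of leaving them out. Counting Mrps30 and Mrps18a with the large subunit and leaving out Mrps36 gave the same calls, as did counting the 3 rows in lower case, a choice made after seeing the data. The replicate block removed none of the 4 calls. No named gene turned its direction while called.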

Other observations

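The 77 cytosolic ribosomal protein genes, all tested, took 6.06%, 4.50% and 5.02% of the counts in the libraries labelled Nrf2 KO, against 9.40%, 6.38% and 7.47% in control. The groups did not overlap, and the mean was 33.0% lower in Nrf2 KO. By edgeR 0 of them passed (33 were lower and 0 higher at an unadjusted p under 0.05), with a median log2 fold change of -0.60 and 75 negative values. DESeq2 called 21 lower, limma-voom 1 and the replicate block 19, with 0 higher in each. Over all genes those fits called 6.43%, 4.12% and 7.92% lower. There were 41 lower without Nrf2 KO replicate 1, and without both replicate 1 libraries 60, with 0 higher in each. In these 2 fits 14.5% and 22.1% of all genes were called lower. These genes have many near-identical pseudogenes, so single levels are uncertain. No test of the difference from the mitochondrial ribosomal protein genes was run.

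The 3 large subunit rows written in lower case were not members. Their log2 fold changes were -0.49 (SE 0.22) for mrpl11, -0.23 (SE 0.18) for mrpl24 and -0.17 (SE 0.17) for mrpl9, and none passed. Over 74 tested members, without Mrps28, the log2 fold change had a Spearman's rho across genes of -0.04 with the length and 0.02 with the GC content of the longest mouse protein-coding transcript in GENCODE M21. The deviation of Nrf2 KO replicate 1 had a rho with length of -0.35 over the Mrpl genes and 0.05 over the Mrps genes, and with GC content of 0.26 and -0.17. The deviation of control replicate 1 had a rho with length of -0.36 over the Mrpl genes. These are descriptions over genes that share libraries.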
